A study of Rattus norvegicus with 6 samples.

Results

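The expression of 10 cadherin genes, chosen as markers of Bowman's capsule, the tubule and the glomerular tuft, was examined in glomerular isolates of adult male Sprague-Dawley rats. No treatment or transgene is given for the rats, and the cells were not cultured. A gene was taken from a probeset annotated with exactly that 1 symbol. By this rule 8 of the 10 genes were measured, out of 14506 genes in all, and Cdh3 and Cdh11 were not matched to such a probeset and were not analysed here. There were 3 arrays of PEC-enriched isolates, which are rich in capsulated glomeruli and were retained on a 90 µm sieve. They hold parietal epithelial cells (PECs), the cells that line Bowman's capsule. There were 3 arrays of PEC-deprived isolates, which are mainly decapsulated glomeruli collected on a 75 µm sieve. The study names individual rats per preparation and gives 3 animals, but it is not stated whether both fractions came from the same rats. Neither isolate is a pure cell population, and preparations of both kinds could hold tubule fragments. By the study's counts every 90 µm preparation also held decapsulated glomeruli and tubules, and the tubule share differed among the 75 µm preparations. The study does not tie these counts to replicate numbers. In such bulk samples, fewer cells of a type and less RNA per cell cannot be told apart.

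Cadherins are calcium-dependent adhesion molecules that join neighbouring cells through their extracellular repeats. The classical members, such as E-cadherin (Cdh1), N-cadherin (Cdh2) and VE-cadherin (Cdh5), bind catenins with their cytoplasmic tail and so connect the junction to actin. In the kidney the cadherins differ by segment and cell type, with Cdh16 (kidney-specific cadherin) and Cdh6 (K-cadherin) in nephron epithelium, Cdhr5 in the microvilli of brush borders, and Cdh5 in endothelium.

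All values are RMA values on the log2 scale, and a difference is the mean of the PEC-enriched minus that of the PEC-deprived arrays, so a difference of 1 is a doubling. The values run from 2.13 to 13.87, array medians lie between 6.69 and 6.75, and the number of arrays limits the precision. Levels of different genes are not compared, because probesets differ in their response. The mean was higher in PEC-enriched isolates for 6 of the 8 cadherins and lower for the other 2. No cadherin passed an adjusted p under 0.01 in limma (0 of 8), where 0% of the 29215 probesets passed and the smallest adjusted p was 0.152. At an unadjusted p under 0.05 in limma, 4 cadherins were higher and 2 lower, against 7.96% of all genes higher and 5.65% lower. The PEC-enriched arrays lay all above the PEC-deprived arrays in 4 cadherins and all below in 1, against 9.68% and 9.00% of all genes. With 3 arrays against 3, an exact permutation test of a single gene cannot go below p = 0.1. In a regularised test of the Bayesian kind named in the methods of the study, which combines each group variance with that of probesets of similar level, 2 of the 8 cadherins passed at a prior weight of 10, against 0.600% of all genes called higher. With a weaker prior (weights 6 and 3, chosen after seeing the data) 0 passed.

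**Figure D1:**
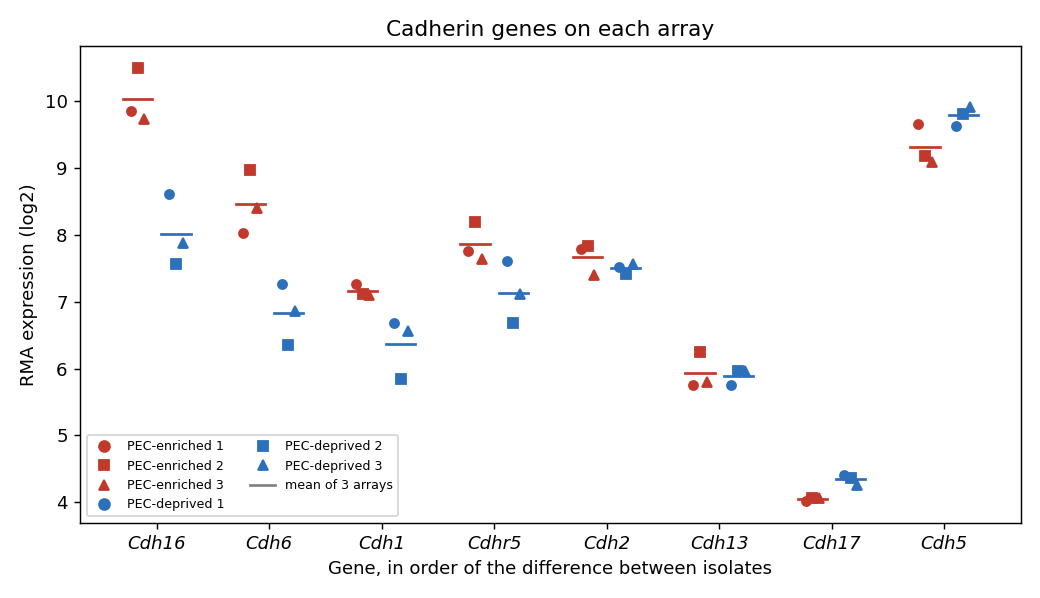
RMA expression (y axis, log2) of the 8 measured cadherins (x axis), where points are single arrays and lines are group means (n = 3). The PEC-enriched arrays (red) lie above all PEC-deprived arrays (blue) in Cdh16, Cdh6, Cdh1 and Cdhr5, and below them in Cdh17.

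Of the tubular cadherins, Cdh16 showed the highest difference between the isolates. Cdh16 is an atypical cadherin of the basolateral membrane of tubular epithelium, with a short cytoplasmic tail that lacks the catenin-binding site of the classical members. In PEC-enriched replicates 1, 2 and 3 its values were 9.86, 10.50 and 9.74, and in PEC-deprived replicates 1, 2 and 3 they were 8.61, 7.56 and 7.87. The groups did not overlap, and PEC-deprived replicate 1 lay closest to the PEC-enriched arrays. The means were 10.03 ± 0.409 and 8.02 ± 0.535 (SD, n = 3 arrays each). The difference was 2.01, or 4.04-fold (standard error 0.285, 95% interval 1.36 to 2.67, limma adjusted p = 0.152). In the regularised test the adjusted p of Cdh16 was 7.14e-05 at a prior weight of 10, 0.0138 at 6 and 0.587 at 3. Over the limma alternatives and arrays left out, its adjusted p ran from 0.032 to 0.471.

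Cdh6, a type II cadherin of the proximal tubule that is also expressed while nephrons form, came next. Its values were 8.03, 8.97 and 8.40 in PEC-enriched replicates 1, 2 and 3, and 7.26, 6.36 and 6.87 in the PEC-deprived replicates. Again every PEC-enriched array lay above every PEC-deprived array. The difference was 1.64 (standard error 0.278, 95% interval 1.00 to 2.28, limma adjusted p = 0.159). In the regularised test its adjusted p was 0.000563 at a prior weight of 10, 0.0216 at 6 and 0.587 at 3. Over the limma alternatives and arrays left out it ran from 0.039 to 0.471. Cdh6, Cdh16 and Cdh11, as well as Celsr2 and Erg described further on, were among the genes the study called on these arrays, so the direction of those measured here is not independent evidence. The study also reported Cdh6 as higher by qPCR on the same RNA, and its mRNA in cultured mouse PECs. By immunostaining of rat kidney it found CDH6 protein in PECs as well as in proximal tubule brush borders.

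Cdh1, the E-cadherin of distal tubule and collecting duct epithelium, had values of 7.27, 7.12 and 7.10 in PEC-enriched replicates 1, 2 and 3. In the PEC-deprived replicates it stood at 6.68, 5.84 and 6.57. The PEC-enriched arrays were close to each other (SD 0.0931), whereas PEC-deprived replicate 2 lay well below the other two (SD 0.454). The groups did not overlap. The difference was 0.80, or 1.74-fold (standard error 0.205, 95% interval 0.33 to 1.27, limma adjusted p = 0.233), and it was 0.54 without PEC-deprived replicate 2.

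Cdhr5, a protocadherin-like protein that links the tips of microvilli in the proximal tubule brush border, had values of 7.76, 8.19 and 7.64 in PEC-enriched replicates 1, 2 and 3. Its PEC-deprived values were 7.60, 6.68 and 7.12. The groups were separated by the small gap between PEC-enriched replicate 3 and PEC-deprived replicate 1. The difference was 0.73, or 1.66-fold (standard error 0.236, 95% interval 0.19 to 1.28, limma adjusted p = 0.328), and 0.50 without PEC-deprived replicate 2.

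Promoters were matched for 2 of the 10 genes, Cdh6 and Cdhr5, in RefSeq sequences of the GRCr8 build. Both are shown because no promoter of the other genes was matched. The 2 genes were higher without overlap, as were Cdh16 and Cdh1. Snail and Zeb factors, which bind a motif searched here, were measured on the same arrays and are given further on. Each line runs 5′ to 3′ from 150 bases before the annotated start to 27 bases from it, on the minus strand, at chr2:63952261-63952437 for Cdh6 and chr1:205811066-205811242 for Cdhr5. Capitals mark matches to the searched motifs.
Cdh6: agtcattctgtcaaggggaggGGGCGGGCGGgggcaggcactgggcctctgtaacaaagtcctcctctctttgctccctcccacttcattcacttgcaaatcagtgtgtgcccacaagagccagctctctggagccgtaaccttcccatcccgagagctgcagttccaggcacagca
Cdhr5: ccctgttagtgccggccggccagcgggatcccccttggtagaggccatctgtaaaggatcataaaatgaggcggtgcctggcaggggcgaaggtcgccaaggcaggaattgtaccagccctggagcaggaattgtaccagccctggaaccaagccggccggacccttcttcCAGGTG

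The capitals of Cdh6 are 2 overlapping GC boxes (GGGCGG) that span the bases from -129 to -120 relative to the start. The capitals of Cdhr5 are an E-box of the kind bound by Snail and Zeb factors (CAGGTG), at bases 22 to 27 from the start. Over the full window of 300 bases, both strands of both promoters were searched for 4 motifs. The E-box was not found in Cdh6 and the GC box not in Cdhr5. Neither an HNF1 half-site (GTTAAT) nor a TATA box (TATAAA) was found in either. Of all 33469 promoters in the table, 33.1% hold the GC box, 18.8% the E-box, 7.45% the HNF1 half-site and 14.2% the TATA box. GC content was 57.3% in the Cdh6 window and 56.7% in that of Cdhr5. A match describes letters in the sequence and not a bound site.

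**Figure D2:**
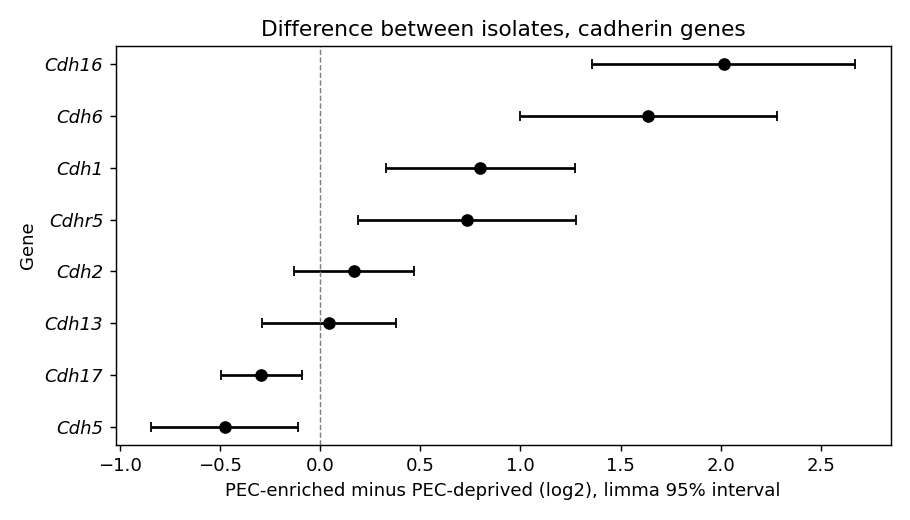
Difference between PEC-enriched and PEC-deprived isolates (x axis, log2) of each cadherin (y axis), with points for the difference and bars for the limma 95% interval. The intervals lie above 0 for Cdh16, Cdh6, Cdh1 and Cdhr5, include 0 for Cdh2 and Cdh13, and lie below 0 for Cdh17 and Cdh5, but no gene passed an adjusted p under 0.01.

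Among cadherins of the tuft, Cdh5 was the one with the lowest difference. Cdh5 encodes VE-cadherin, the adherens junction cadherin of endothelial cells. Its values were 9.66, 9.18 and 9.09 in PEC-enriched replicates 1, 2 and 3, and 9.63, 9.81 and 9.92 in the PEC-deprived replicates. The groups overlapped only through PEC-enriched replicate 1, which lay just above PEC-deprived replicate 1. The difference was -0.48, or 0.719-fold (standard error 0.159, 95% interval -0.84 to -0.11, limma adjusted p = 0.345). Without PEC-enriched replicate 1 it was -0.65.

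Cdh2 encodes N-cadherin, which in rodent kidney is found in the proximal tubule and in glomerular cells. Its values were 7.78, 7.84 and 7.39 in PEC-enriched replicates 1, 2 and 3, and 7.53, 7.42 and 7.56 in the PEC-deprived replicates. PEC-enriched replicate 3 lay below all PEC-deprived arrays, and the other two above them. The difference was 0.17 (95% interval -0.13 to 0.47, limma adjusted p = 0.768), and it ran from 0.09 without PEC-enriched replicate 2 to 0.31 without PEC-enriched replicate 3.

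Cdh13, or T-cadherin, is held in the membrane by a lipid anchor and occurs in vessels. It stood at 5.76, 6.25 and 5.80 in PEC-enriched replicates 1, 2 and 3, and at 5.75, 5.96 and 5.96 in the PEC-deprived replicates. The groups overlapped, with a difference of 0.05 (95% interval -0.29 to 0.38, limma adjusted p = 0.96). The sign turned to -0.11 without PEC-enriched replicate 2 and to -0.02 without PEC-deprived replicate 1.

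Cdh17, or LI-cadherin, is known from intestinal epithelium. Its values were 4.02, 4.06 and 4.07 in PEC-enriched replicates 1, 2 and 3, and 4.40, 4.36 and 4.26 in the PEC-deprived replicates, all below 5.28, the 25th percentile of the mean levels of all probesets. Every PEC-enriched array lay below every PEC-deprived array. The difference was -0.29 (standard error 0.0872, 95% interval -0.49 to -0.09, limma adjusted p = 0.305). Its adjusted p was 1.00 in the regularised test at a prior weight of 10. Without detection calls it is unknown whether the transcript was detected.

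The cadherins were then set against each other in the order of their differences, by taking the difference of both genes on each array. Over all 28 pairs of cadherins, 20 did not overlap between the isolates, and the smallest adjusted p was 0.14 (exact permutation test, two-sided). The pairs share genes, so this count partly restates the differences of single genes such as Cdh16 and Cdh6. No share over pairs of other genes was taken, so the count is a description only. Neighbours in the order are the closest pairs by construction, and of these 7 pairs 2 did not overlap. The difference of Cdh6 exceeded that of Cdh1 by 0.84 ± 0.326 (standard error, n = 3 arrays per group, exact permutation test, two-sided, p = 0.1, adjusted p = 0.35), and the other such pair was Cdh13 and Cdh17, whose difference is not interpreted because detection of Cdh17 is unknown. The other 5 pairs overlapped. Cdh16 and Cdh6 differed by 0.38 ± 0.174 (exact permutation p = 0.2), and Cdh1 and Cdhr5 by 0.07 ± 0.216 (exact permutation p = 0.8). No pair could pass a threshold of 0.05 by an exact permutation test in this design.

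Marker lists of the cell types in the isolates also had different levels on the same arrays, and their part in the cadherin differences was not tested. All 15 proximal tubule genes were higher by mean on PEC-enriched arrays, with a median difference of 1.00 (0.66 without PEC-deprived replicate 2), and the mean level of the list was 9.05 to 9.64 in PEC-enriched and 7.79 to 8.95 in PEC-deprived arrays. Of 7 measured thick ascending limb genes 7 were higher, with a median of 2.04 and list levels of 8.50 to 8.98 against 6.44 to 7.59. Of 12 measured distal tubule and collecting duct genes 11 were higher, with a median of 0.54 and list levels of 6.78 to 6.95 against 5.92 to 6.46. Of 10 parietal epithelial genes 9 were higher, with a median of 0.53 and list levels of 7.50 to 7.74 against 6.94 to 7.25. Several of these, such as Krt8 and Pax2, are also expressed in tubules. The study called Krt8, Pax2 and other genes of the tubule and parietal lists on these same arrays. It also called the endothelial gene Ehd3 and the smooth muscle genes Myh11 and Tagln. Of 12 endothelial genes 0 were higher and 12 lower, with a median of -0.43 and list levels of 10.54 to 11.07 against 11.13 to 11.22. Of 6 leukocyte genes 6 were lower (median -0.40, levels of 7.16 to 7.94 against 7.74 to 7.97), with a median of -0.68 without PEC-enriched replicate 1 and -0.22 without PEC-enriched replicate 2. Podocyte genes split into 4 higher and 5 lower (median -0.00, levels of 11.49 to 11.81 against 11.63 to 11.71). Mesangial and smooth muscle genes split into 5 and 5 (median -0.01, levels of 8.71 to 9.05 against 8.76 to 8.84), and fibroblast genes into 3 and 3 (median -0.04, levels of 6.56 to 6.66 against 6.45 to 6.85). The median of the former pools mesangial with smooth muscle genes. Of its 4 largest differences, those of Myh11, Tagln and Rgs5 were 0.83, 0.72 and 0.45, and that of Gata3 was -0.64. The groups did not overlap in Myh11 and Tagln, which are smooth muscle genes, and overlapped in Rgs5 and Gata3. The medians of the podocyte, mesangial and fibroblast lists changed sign when single arrays were left out. The median over all genes was -0.02. limma called 0 of these marker genes at an adjusted p under 0.01. Bulk isolates do not assign a cadherin to capsule, tubule or tuft.

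The order of the arrays within a group was compared between cadherins and lists. In Cdh16, Cdh6, Cdh1 and Cdhr5 replicate 1 was highest and replicate 2 lowest among the PEC-deprived arrays, as was the case in the lists of proximal tubule, thick ascending limb, distal tubule and parietal epithelium. In the PEC-enriched arrays the order differed by gene. Cdhr5, Cdh16 and Cdh2 ranked replicate 2, 1, 3, and of the marker lists the proximal tubule list did so. Cdh6 and Cdh13 ranked replicate 2, 3, 1, as did the parietal epithelial list. Cdh1 and Cdh5 ranked replicate 1, 2, 3, as did the lists of thick ascending limb, endothelium and mesangium and smooth muscle, whereas the distal tubule and collecting duct list ranked 1, 3, 2. In the PEC-deprived arrays Cdh5 ranked replicate 3, 2, 1, which was the order of the mesangial and podocyte lists, and the endothelial list ranked 2, 3, 1. An order was thus shared by lists of unlike cell types. With 3 arrays there are only 6 possible orders, so these are descriptions, and they were not tested.

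**Figure D3:**
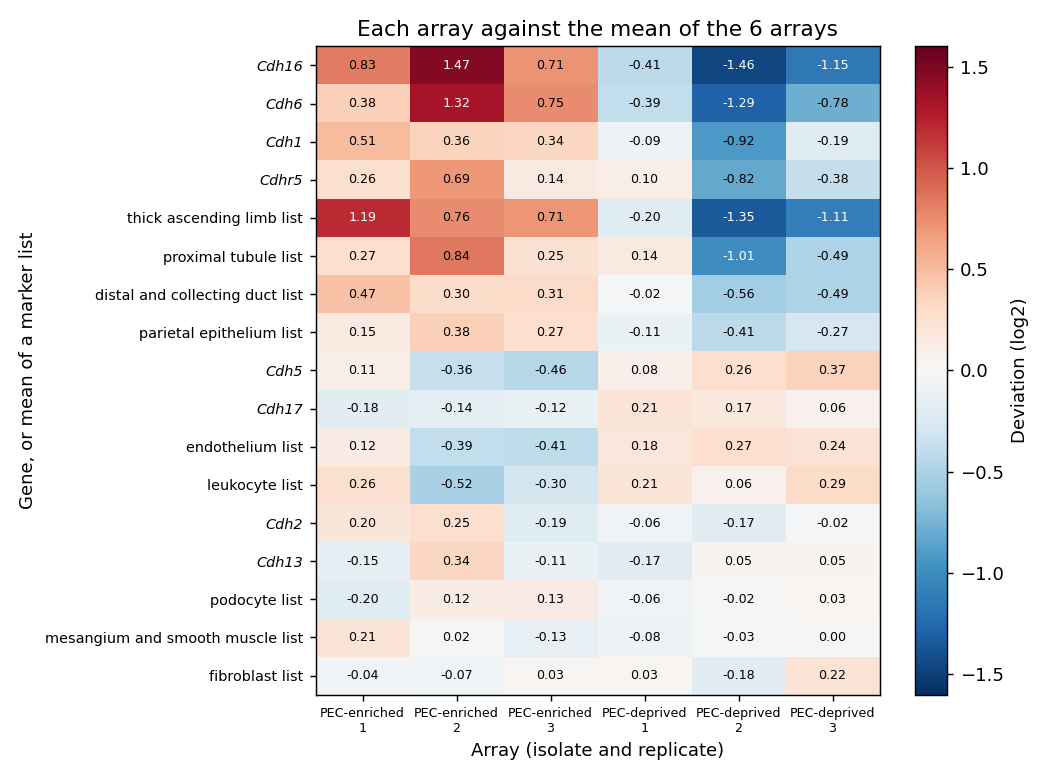
Deviation of each array (x axis) from the mean of the 6 arrays (colour and printed value, log2) for the 8 cadherins and for the mean of each marker list (y axis). Cdh16 ranges from 1.47 in PEC-enriched replicate 2 to -1.46 in PEC-deprived replicate 2. Cdh5 is positive in PEC-enriched replicate 1, as are all marker lists except podocyte and fibroblast.

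The genes whose pattern over the 6 arrays was most like that of a cadherin were found by Pearson's r across 14506 genes. The points share the difference between the isolates, and so many genes invite high values, so r is a description only. For Cdh6 these were Cldn1 (r = 0.9987), the claudin of parietal cells, Rogdi (r = 0.997) and Lad1 (r = 0.9969), which encodes an anchoring filament protein. Cldn1 had values of 8.57, 9.40 and 9.01 in PEC-enriched and 7.99, 7.21 and 7.65 in PEC-deprived replicates 1, 2 and 3, a difference of 1.38. For Cdh16 they were Fras1 (r = 0.9977), a basement membrane protein, Ptprf (r = 0.9966), a receptor phosphatase, and Phyh (r = 0.9962), a peroxisomal enzyme. For Cdhr5 they were Slc7a7 (r = 0.9991) and Slc3a1 (r = 0.9989), both parts of amino acid transporters, and Dcxr (r = 0.9985), a sugar reductase. For Cdh1 they were Bhmt (r = 0.9927), a methyltransferase, Sim1 (r = 0.9911), a transcription factor, and Timp4 (r = 0.9908), an inhibitor of metalloproteinases. For Cdh5 they were Map3k11 (r = 0.9983), Rela (r = 0.9969) and Lyn (r = 0.9963), which are signalling genes and not endothelial markers. For Cdh2, Cdh13 and Cdh17, r of the nearest genes was 0.9878 (Lrp4), 0.9949 (Dnajc10) and 0.9889 (Zfp213). Cldn1, Lad1, Fras1, Ptprf, Phyh, Slc7a7 and Slc3a1 were also among the genes the study called on these arrays.

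Other members of the cadherin superfamily had differences on both sides of 0. Of 49 listed genes 27 were measured, 12 with a higher and 15 with a lower mean, and the median difference was -0.02, as over all genes, turning to 0.02 under cyclic loess scaling and 0.03 without PEC-enriched replicate 2. limma called 0 of them at an adjusted p under 0.01. At an unadjusted p under 0.05 there was 1 higher and 3 lower, against 7.96% and 5.65% of all genes. Celsr2, a seven-pass cadherin of planar cell polarity, had values of 7.67, 8.59 and 7.77 in PEC-enriched replicates 1, 2 and 3 and 6.94, 6.51 and 6.40 in the PEC-deprived replicates. The groups did not overlap, with a difference of 1.39 (standard error 0.249, limma adjusted p = 0.162), and the regularised test called it at a prior weight of 10 (adjusted p = 0.00141). The lower ones were Pcdh1, a protocadherin, at -0.54 (limma adjusted p = 0.338), Dchs1, the ligand of Fat4, at -0.49 (adjusted p = 0.369), and Pcdh17 at -0.46 (adjusted p = 0.416). In Pcdh1 the groups did not overlap, and in the other two PEC-enriched replicate 1 lay among the PEC-deprived arrays, where it lay for Cdh5 too.

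The catenins and other junction partners had differences of either sign. Of 24 listed genes 18 were measured, 7 with a higher and 11 with a lower mean, and the median difference was -0.09 (-0.05 without PEC-enriched replicate 2). limma called 0, with 2 higher and 2 lower at an unadjusted p under 0.05, against 7.96% and 5.65% of all genes. Ctnnb1, which encodes β-catenin and binds the classical tail, had values of 10.89, 10.91 and 10.77 in PEC-enriched and 10.96, 10.87 and 11.00 in PEC-deprived replicates 1, 2 and 3, a difference of -0.09 (95% interval -0.29 to 0.12). For Ctnna1, the α-catenin that reaches actin, it was -0.06 (95% interval -0.26 to 0.14), and for Ctnnd1, the p120 catenin that keeps cadherins at the surface, -0.09 (95% interval -0.30 to 0.13). Groups overlapped in all 3. Jup, or γ-catenin, lay lower on all PEC-enriched arrays by a difference of -0.19 (95% interval -0.41 to 0.03). These intervals do not reach the differences of Cdh1, Cdh6 or Cdh16. The largest absolute differences of the list were those of Ctnnal1, an α-catenin relative, at 0.62 (limma adjusted p = 0.279), Lima1, an actin-binding protein, at -0.52 (adjusted p = 0.325), Nectin3, an adhesion molecule of the immunoglobulin family, at -0.44 (adjusted p = 0.281), and Pkp2, a desmosomal plaque protein, at 0.39 (adjusted p = 0.356).

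Of the 5 listed partners of Cdhr5 in the complex that joins brush border microvilli, 2 were measured. Ush1c, its scaffold protein, had values of 7.09, 7.39 and 7.07 in PEC-enriched and 7.15, 6.33 and 6.77 in PEC-deprived replicates 1, 2 and 3. The groups overlapped through PEC-deprived replicate 1, with a difference of 0.43 (limma adjusted p = 0.513). Calml4, a calmodulin-like light chain of the complex, had a difference of -0.07 (limma adjusted p = 0.916).

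Regulators known to act on cadherin genes were listed as well. They are mostly transcription factors, but Esrp1 (difference 0.34, with overlap) is an RNA-binding splicing regulator. Of 18 listed regulators 15 were measured, 4 with a higher and 11 with a lower mean, where 8005 of all 14506 genes also had a lower mean. The median difference was -0.26, and it was -0.12 without PEC-enriched replicate 2 and -0.36 without PEC-enriched replicate 1. limma called 0, with 0 higher and 4 lower at an unadjusted p under 0.05, against 7.96% and 5.65% of all genes. In 4 factors all PEC-enriched arrays were lower, against 9.00% of all genes. Erg, an endothelial factor that activates Cdh5, stood at 9.70, 9.26 and 9.26 in PEC-enriched and 10.09, 10.38 and 10.37 in PEC-deprived replicates 1, 2 and 3, without overlap. Its difference was -0.88 (standard error 0.148, limma adjusted p = 0.159), and the regularised test called it at a prior weight of 10 (adjusted p = 0.00715). Tcf4, a basic helix-loop-helix factor, had a difference of -0.54 (limma adjusted p = 0.322), Klf4, a Krüppel-like factor of epithelium and endothelium, of -0.46 (adjusted p = 0.182), and Snai2, a repressor of Cdh1, of -0.40 (adjusted p = 0.585). The groups overlapped in Snai2. Zeb1, which binds the E-box searched above, was lower without overlap, at -0.30 (limma adjusted p = 0.4). Zeb2 and Snai1 were at -0.26 each, with overlap. The endothelial list was lower on the same arrays, as given above, and its part in these values was not tested.

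**Figure D4:**
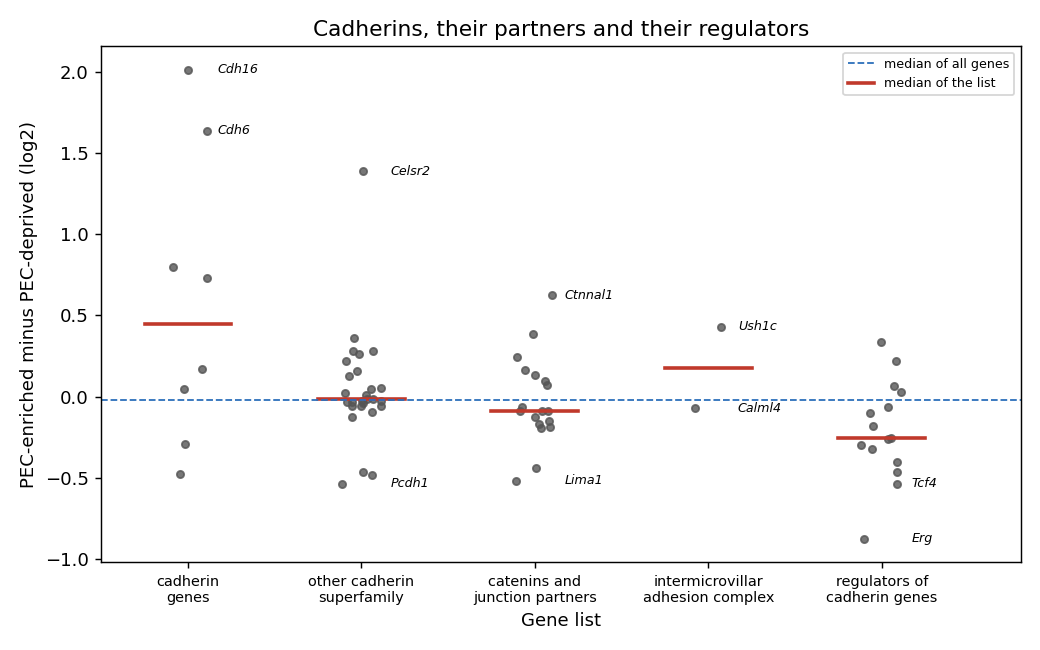
Difference between PEC-enriched and PEC-deprived isolates (y axis, log2) of the measured genes of each list (x axis), with each point 1 gene, red lines the list medians, the dashed line the median of all genes at -0.02, and the 2 genes of largest absolute difference in each list named. Cdh16, Cdh6 and Celsr2 are the genes above 1 among the 5 lists drawn, which leave out the cell type markers.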

How the data were processed

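Total RNA of 6 glomerular isolates was hybridized to Affymetrix Rat Gene 1.0 ST arrays, 1 array per preparation. The authors adjusted background, normalized by quantiles and summarized each probeset by RMA, also named in the submitters' processing notes, and the deposited values are log2 expression values. For the software version and for how probesets were defined, nothing is stated in the sources read here. Quantile normalization sets all arrays to one distribution, so values are relative to the other probesets of an array. Neither detection calls nor scanner files entered the work.

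limma 3.58.1 in R 4.3.3 compared PEC-enriched with PEC-deprived arrays on all 29215 probesets (lmFit and eBayes, two-sided, no covariate), with Benjamini-Hochberg adjustment over all of them and a threshold of 0.01, as in the methods of the study. The 14506 genes were each represented by the probeset with the highest mean over 6 arrays, among the 15310 probesets annotated with 1 symbol, and 15279 of these were matched by Entrez ID to RefSeq symbols of GRCr8. The alternatives are listed with their effects in the closing section. The fits were also tested on simulated data. The cadherin genes, gene lists, motifs and tests were chosen with earlier results of these data known. Named genes were all measured cadherins of the set, up to 4 genes of largest absolute difference in each list, the main catenins, and the 3 genes most like each cadherin. Esrp1 and the Snail and Zeb factors were named in addition. Figures were drawn with matplotlib 3.10.9.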

Additional observations from a re-analysis of the deposited data

How the results depend on the processing

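The cadherins kept their direction under all alternatives except Cdh13, whose difference ran from -0.109 to 0.136 with single arrays left out and turned negative without PEC-enriched replicate 2 and without PEC-deprived replicate 1. The 12 other alternatives for the count of calls were a replicate block, array weights, an intensity trend, the regularised test at 3 prior weights (6 and 3 chosen after seeing the data), probesets above the median level, probesets with 1 symbol, median centring, cyclic loess, averaging the probesets of each gene, and an adjusted p under 0.05. Cdh13 and Cdh17 lay below the median level and were not tested in that setting. The regularised test at a prior weight of 10 called 2 cadherins, 119 probesets and 11 partner and marker genes, against 0 of each in limma. At a prior weight of 6 it called 1 probeset and 1 gene of the partner and marker lists, and at 3 it called 0. With single arrays left out, limma called 0 cadherins in each case and 0 to 1 probesets and marker genes, the 1 being Slc12a1 without PEC-deprived replicate 1. With the replicate block, 0 cadherins were called. It is not stated whether arrays of the same replicate number share a rat. Deviations of same-numbered arrays from their group means correlated at -0.029, 0.052 and 0.1 for replicates 1, 2 and 3. For arrays of unlike number r ran from -0.135 to 0.083. These ranges overlap, so the check does not decide whether the arrays are paired. Signal over background is unknown.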

Other observations

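The protein-coding genes next to a measured cadherin in the gene order of GRCr8 were examined where they had a probeset with 1 symbol, which was chosen after the cadherin values were seen. Beside Cdhr5 lies Irf7, a factor of the interferon response, with values of 7.61, 7.62 and 8.12 in PEC-enriched and 8.65, 8.07 and 8.50 in PEC-deprived replicates 1, 2 and 3. Its difference was -0.62 (limma adjusted p = 0.31), opposite in sign to that of Cdhr5, and the groups overlapped. The other neighbour of Cdhr5, Sct, had a difference of -0.08 (limma adjusted p = 0.914). Beside Cdh16 lie Rrad, with a difference of 0.11 (limma adjusted p = 0.823), and Pdp2, with 0.37 (adjusted p = 0.482), and in both genes the groups overlapped. Drosha, beside Cdh6, had a difference of -0.07 (limma adjusted p = 0.904). Beside Cdh13, Hsbp1 had values of 11.25, 11.25 and 11.22 in PEC-enriched and 11.14, 11.16 and 11.19 in PEC-deprived replicates 1, 2 and 3. It was the one non-cadherin neighbour whose groups did not overlap, with a difference of 0.08 (limma adjusted p = 0.848). Beside Cdh17, Gem and Pdp1 had differences of -0.03 (limma adjusted p = 0.972) and 0.04 (adjusted p = 0.946), with overlap in both. None of these genes passed an adjusted p under 0.01.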
